A study of Homo sapiens with 12 samples.

Results

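NOTCH receptors, their ligands and their target genes were examined in single-cell RNA-sequencing (scRNA-seq) data from 3 head and neck squamous cell carcinoma (HNSCC) cell lines. The 10 members were a list of gene names, chosen with earlier results of these data known. They were the receptors NOTCH1, NOTCH2 and NOTCH3, the ligands JAG1, JAG2 and DLL1, the targets HES1, HES2 and HEY1, and the coactivator MAML2. All 10 were present among the 33514 gene symbols of the count tables, and all 10 passed the filter on low counts that left 17897 genes for testing.

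NOTCH receptors are cell-surface proteins that are switched on by Jagged and Delta-like ligands on a neighbouring cell. Ligand binding leads ADAM and gamma-secretase proteases to cut the receptor, and the freed intracellular domain joins the DNA-binding protein RBPJ and a Mastermind coactivator such as MAML2 in the nucleus. HES and HEY genes, which encode transcriptional repressors, are the classical targets. In stratified squamous epithelium NOTCH signalling is known for its part in the switch from basal to differentiating cells, and NOTCH1 is recurrently mutated in HNSCC.

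SCC1, SCC6 and SCC25 are established HNSCC lines that respond to cetuximab, an antibody against the epidermal growth factor receptor (EGFR). Each line received cetuximab at 100 nM every day for 5 days or PBS (untreated), with 2 replicates per group, which gave 12 samples in 6 groups. All groups were grown in the same medium with serum, and each library was made from trypsinised cells. Whether the replicates were separate cultures is not clear from the sources used here, and all errors and p-values below then cover only the spread between these samples.

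The samples held 961 to 2854 cells and 57057402 to 112170073 unique molecular identifiers (UMIs, 1 per captured transcript). The median number of UMIs per cell was lowest in SCC6 cetuximab replicate 1 (24078.5) and highest in SCC1 cetuximab replicate 1 (54864). All 9 epithelial and squamous markers examined were detected in every group, although the basal keratins KRT5 and KRT14 were low in SCC6, where PBS samples had 1.16 and 1.62 UMIs per 1000000 (CPM) of KRT5, against 332 or more in untreated SCC1 and SCC25. The summed level of 6 leukocyte markers reached 210 CPM in SCC25 PBS, of which CD68 gave 165 to 205, and the leukocyte gene PTPRC did not exceed 0.0691 CPM in any sample. The summed level of 7 fibroblast and mural markers, all of which had UMIs in the cetuximab groups, was 1.13 to 3.33 CPM in SCC6 PBS and 23.0 to 27.3 CPM in SCC6 cetuximab.

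Of the 8 members whose promoters could be searched, only HES1 held the core of the sequence that RBPJ recognises. DLL1 and HEY1 could not be searched. Whether HES1 levels reported NOTCH activity in these cells was not tested. RefSeq promoters (GRCh38.p14) were given for 8 of the 10 members. The core motif TGGGAA, or TTCCCA on the other strand, was searched in the 250 bases before each gene start, and 1 of the 8 promoters, that of HES1, held it. In all 35116 promoters of that table, 20.8% held the motif at least once and 2.9% held it 2 or more times. The last 120 bases before the HES1 start, at chr3:194136028-194136147 on the plus strand, are given with the motif in capitals.
HES1: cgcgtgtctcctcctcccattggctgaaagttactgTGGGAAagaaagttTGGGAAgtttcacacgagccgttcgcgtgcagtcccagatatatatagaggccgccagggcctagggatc
Both copies lay in the sense orientation and began 84 and 70 bases before the gene start. A match describes these letters only, and no measure of RBPJ binding was part of these data.

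To compare the lines before treatment, the UMIs of each gene were added up within a sample, scaled to CPM with TMM factors, and compared in edgeR by its quasi-likelihood approach. Log2 fold changes are given ± standard error (SE), and FDR is the Benjamini-Hochberg adjusted p-value over all 17897 genes. The SE was derived from the test, as the absolute log2 fold change divided by the square root of the F statistic. Between untreated lines the members called at an FDR under 0.05 numbered 3 of 10 for SCC1 against SCC6, 5 of 10 for SCC1 against SCC25 and 6 of 10 for SCC6 against SCC25. Of all tested genes, 40.2%, 40.8% and 40.9% were called in the same comparisons. Summed counts alone cannot tell fewer expressing cells from less RNA per cell.

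The receptors were distributed differently among the lines. NOTCH1 stood at 19.6 and 22.7 CPM in the SCC1 PBS replicates, at 8.51 and 7.40 CPM in SCC6 and at 12.7 and 12.8 CPM in SCC25. The groups did not overlap, and the order was SCC1, SCC25, SCC6. NOTCH1 was higher in SCC1 than in SCC6 (log2 fold change 1.41 ± 0.30, edgeR FDR = 0.00441), whereas its neighbours in this order were not separated at the threshold (FDR = 0.0753 for SCC1 against SCC25 and 0.0974 for SCC6 against SCC25).

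NOTCH3, a receptor of both vascular and epithelial cells, was lowest in SCC25. Its PBS replicates had 13.8 and 14.1 CPM in SCC1, 23.2 and 22.6 CPM in SCC6, and 2.19 and 5.40 CPM in SCC25. The 2 SCC25 samples were below every other untreated sample. NOTCH3 was higher than in SCC25 both in SCC6 (2.59 ± 0.61, FDR = 0.00679) and in SCC1 (1.87 ± 0.59, edgeR FDR = 0.0283). The second call was lost without SCC1 PBS replicate 1 (FDR = 0.0758), SCC1 PBS replicate 2 (FDR = 0.0820) or SCC25 PBS replicate 1 (FDR = 0.152).

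NOTCH2 was highest in SCC6. The PBS replicates had 16.6 and 10.1 CPM in SCC1, 23.3 and 17.5 CPM in SCC6, and 13.0 and 6.49 CPM in SCC25. Both SCC6 samples lay above those of the other lines, SCC1 and SCC25 overlapped, and replicate 1 exceeded replicate 2 in each line. No pair of lines differed at the threshold. The blocked fit of untreated lines used 1 replicate-number term shared by all lines. In it, SCC6 was higher than both SCC25 (1.13, edgeR FDR = 0.000903) and SCC1 (the SCC1 against SCC6 value was -0.65, edgeR FDR = 0.0181). Whether equal numbers belong together across lines is not known. NOTCH2NL, a partial copy of NOTCH2 with its own line in the tables, had 0.602 to 3.62 CPM, and how reads shared between the copies were counted is not given in the sources used here, so the NOTCH2 level is uncertain.

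**Figure D1:**
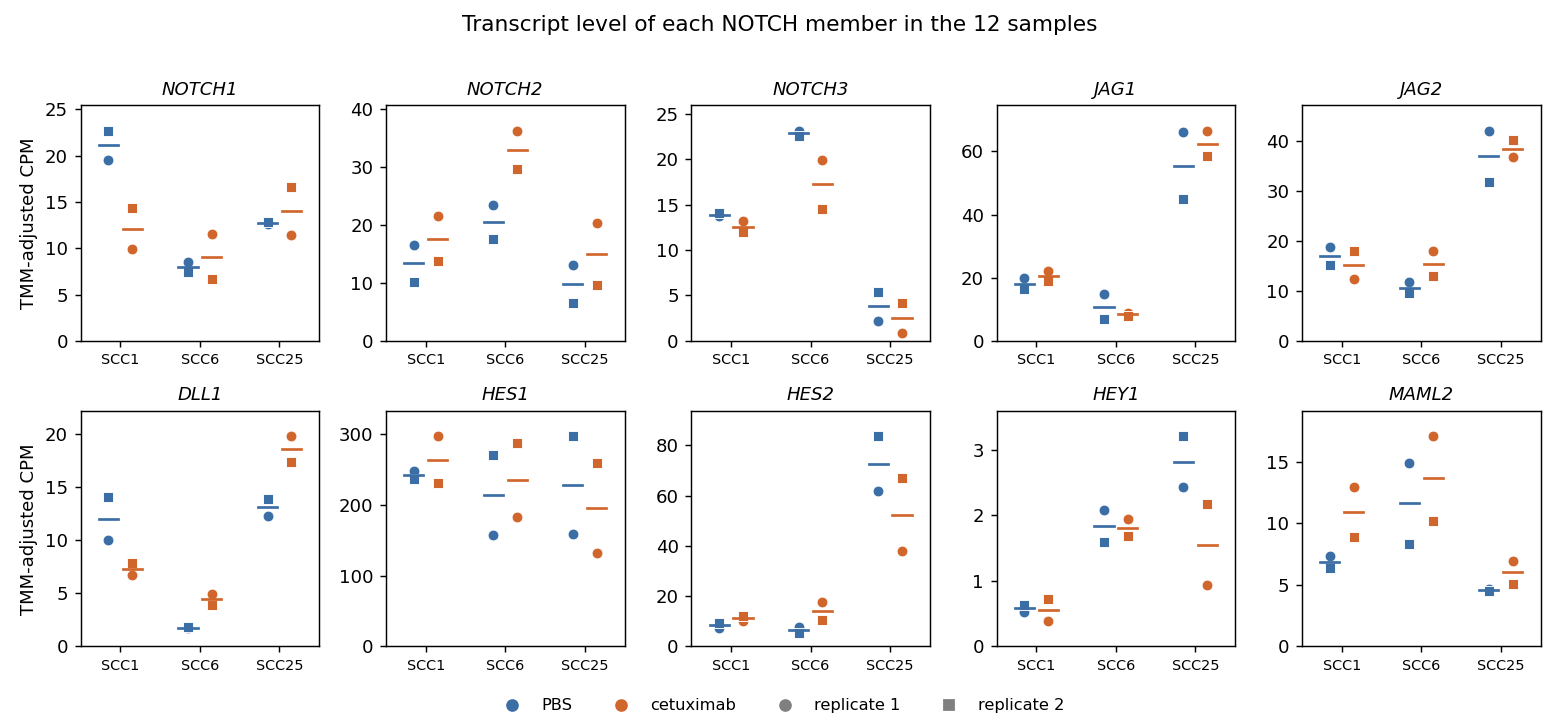
Level of each member in TMM-adjusted CPM (linear axes from 0) in SCC1, SCC6 and SCC25, with 1 point per sample, circles for replicate 1, squares for replicate 2, and bars at the mean of 2 replicates. JAG1, JAG2 and HES2 are highest in SCC25 with either treatment, while NOTCH3 is lowest there.

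The Jagged ligands were highest in SCC25. JAG1 had 66.1 and 44.9 CPM in the SCC25 PBS replicates, 19.8 and 16.4 CPM in SCC1, and 14.7 and 6.91 CPM in SCC6. The SCC25 samples lay above all other untreated samples, and the differences were -1.61 ± 0.33 for SCC1 against SCC25 (FDR = 0.00347) and -2.36 ± 0.34 for SCC6 against SCC25 (edgeR FDR = 0.000450). JAG2 gave the same order, with 42.2 and 31.9 CPM in SCC25, 18.8 and 15.2 CPM in SCC1, and 11.7 and 9.57 CPM in SCC6. It was lower in SCC1 (-1.13 ± 0.26, FDR = 0.00689) and in SCC6 (-1.80 ± 0.27, edgeR FDR = 0.000547) than in SCC25, although the SCC1 call was lost without SCC1 PBS replicate 2 (FDR = 0.0654). Between SCC1 and SCC6 neither ligand passed the test (edgeR FDR = 0.0955 for JAG1 and 0.0642 for JAG2), and both did in the blocked fit (JAG1 0.80, FDR = 0.00979, and JAG2 0.67, edgeR FDR = 0.0285). Both also passed with plain library totals, JAG2 did in DESeq2 (FDR = 0.0496), and JAG1 did without SCC6 PBS replicate 1 (log2 fold change 1.39).

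DLL1, the Delta-like ligand, set SCC6 apart. SCC6 PBS had 1.73 and 1.80 CPM, SCC1 had 9.98 and 14.1 CPM, and SCC25 had 12.3 and 13.9 CPM. DLL1 was lower in SCC6 than in either of the other lines, by -2.89 ± 0.25 against SCC25 (FDR = 1.66e-05) and with 2.77 ± 0.25 for SCC1 against SCC6 (edgeR FDR = 1.81e-05). SCC1 and SCC25 overlapped (-0.12 ± 0.23, edgeR FDR = 0.700).

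Among the targets, HES2 and HEY1 differed between lines and HES1 was not separated. HES2 had 61.8 and 83.6 CPM in SCC25 PBS against 7.28 and 9.46 CPM in SCC1 and 7.75 and 5.53 CPM in SCC6. All SCC25 values exceeded the others by a wide margin, with -3.12 ± 0.37 for SCC1 against SCC25 (FDR = 0.000133) and -3.45 ± 0.38 for SCC6 against SCC25 (edgeR FDR = 7.83e-05). HEY1 was scarce, with 0.531 and 0.629 CPM in SCC1, 2.08 and 1.59 CPM in SCC6, and 2.43 and 3.21 CPM in SCC25. Its level in SCC1 was under that in SCC25 (-2.28 ± 0.44, FDR = 0.00255) and under that in SCC6 (-1.65 ± 0.44, edgeR FDR = 0.0129), but the second call was lost without SCC1 PBS replicate 1 (FDR = 0.0840), SCC1 PBS replicate 2 (FDR = 0.0570) or SCC6 PBS replicate 1 (FDR = 0.0657).

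HES1, a broadly used NOTCH target, varied more between the replicates of SCC6 and of SCC25 than between line means, whereas the SCC1 replicates lay close together. The PBS replicates had 248 and 236 CPM in SCC1, 157 and 270 CPM in SCC6, and 158 and 297 CPM in SCC25. The 3 line differences lay between -0.09 and 0.18 on the log2 scale, and the edgeR FDR was 0.764 or higher in each. MAML2, the coactivator, had 7.31 and 6.33 CPM in SCC1, 14.9 and 8.35 CPM in SCC6, and 4.65 and 4.49 CPM in SCC25. It was higher in SCC6 than in SCC25 (1.35 ± 0.35, edgeR FDR = 0.0108), a call lost without SCC6 PBS replicate 1 (FDR = 0.0959) or SCC25 PBS replicate 2 (FDR = 0.0540). With the replicate block shared by all lines, 7 of 10 members were called in each of the 3 line comparisons, where 53.8%, 54.7% and 54.4% of all genes were. The calls gained beyond those already given were MAML2 for SCC1 against SCC6 (-0.72, FDR = 0.0117), and NOTCH1 (0.73, FDR = 0.0449) and MAML2 (0.57, edgeR FDR = 0.0357) for SCC1 against SCC25.

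Cetuximab was then compared with PBS within each line. In SCC6, 1 of the 10 members, DLL1, was called, beside 3.81% of all genes tested. In SCC1 and SCC25, edgeR called 0 of the 10 members, beside 0.0168% and 0% of all genes. For the interaction of line and cetuximab it called 0 as well, beside 0% of all genes. At an unadjusted p under 0.05, 2 members passed in SCC1, 2 in SCC6 and 1 in SCC25, beside 8.77%, 19.9% and 5.82% of all genes, and 2 for the interaction, beside 7.36%. DESeq2 called 0, 2 and 0 in the 3 lines and 1 for the interaction, beside 1.77%, 9.91%, 0.639% and 1.67% of the genes it tested.

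DLL1 rose in SCC6. Its level was 1.73 and 1.80 CPM in the PBS replicates and 4.97 and 3.93 CPM in the cetuximab replicates. The groups did not overlap, and the log2 fold change was 1.33 ± 0.24 (edgeR FDR = 0.0177; 0.00298 with the replicate block). The call was lost in a fit to SCC6 alone (FDR = 0.0890), without SCC6 PBS replicate 1 (FDR = 0.150) and without SCC6 cetuximab replicate 1 (FDR = 0.128). The treated level remained below the untreated levels of SCC1 and SCC25. In the same samples VIM, a mesenchymal filament gene, went from 33.6 and 92.8 CPM with PBS to 805 and 841 CPM with cetuximab, and 3 of the 7 fibroblast and mural markers were called higher. Their part in the DLL1 difference was not tested.

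The other lines gave different values for DLL1. In SCC1 it went from 9.98 and 14.1 CPM with PBS to 6.72 and 7.84 CPM with cetuximab (-0.72 ± 0.23, edgeR FDR = 0.370; 0.0502 with the block). In SCC25 it went from 12.3 and 13.9 CPM to 19.8 and 17.4 CPM (0.50 ± 0.23, edgeR FDR = 0.859). Neither line overlapped between treatments, but neither difference passed the test. The interaction of line and cetuximab gave an edgeR FDR of 0.250 for DLL1 without the replicate block and 0.0251 with it. In DESeq2 the interaction FDR for DLL1 was 3.475e-05. The difference between the SCC6 and SCC1 effects was 2.06 ± 0.33 on the log2 scale (FDR = 0.128; 0.0128 with the block).

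HES2, a further HES repressor, gave values of opposite sign in SCC6 and SCC25. Its level in SCC6 was 7.75 and 5.53 CPM with PBS and 17.6 and 10.4 CPM with cetuximab, without overlap (1.08 ± 0.35, edgeR FDR = 0.118). With the replicate block this became a call (1.05, edgeR FDR = 0.00358), as it did in DESeq2 (FDR = 0.0461) and in edgeR with no filter (FDR = 0.0370). The value was 0.65 without SCC6 cetuximab replicate 1 and 1.40 without replicate 2. In SCC1 the values were 7.28 and 9.46 CPM with PBS and 10.1 and 12.2 CPM with cetuximab (0.42 ± 0.35, edgeR FDR = 0.854). SCC25, the line with most HES2, had 61.8 and 83.6 CPM with PBS and 37.8 and 67.1 CPM with cetuximab (-0.47 ± 0.34, edgeR FDR = 0.985), and the value was -0.098 without SCC25 cetuximab replicate 1 and -0.95 without replicate 2. The interaction FDR for HES2 was 0.611 in edgeR without the block, 0.0311 with it, and 0.285 in DESeq2. The SCC25 effect was below that in SCC6 by -1.55 ± 0.49 (edgeR FDR = 0.417; 0.0256 with the block).

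Across the lines, edgeR called 0 of the 10 members, beside 3.67% of all genes. DESeq2 also called 0, beside 10.1%, and 2 members passed an unadjusted p under 0.05, beside 21.0% of all genes. These were NOTCH2 and MAML2, which were higher with cetuximab in all 6 pairs of samples with the same replicate number, as were 10.5% of all genes. NOTCH3 was lower in all 6 pairs, as were 10.6% of all genes.

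NOTCH2 had, with cetuximab, 21.5 and 13.7 CPM in SCC1, 36.2 and 29.7 CPM in SCC6, and 20.3 and 9.60 CPM in SCC25. The log2 changes per pair ranged from 0.37 to 0.76. The change across lines was 0.57 ± 0.23 (edgeR FDR = 0.183), and with the replicate block it was a call (0.57, edgeR FDR = 0.00810). In SCC6 alone NOTCH2 changed by 0.69 ± 0.43 (FDR = 0.417), also a call with the block (0.70, edgeR FDR = 0.00742).

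MAML2 with cetuximab had 12.9 and 8.91 CPM in SCC1, 17.1 and 10.2 CPM in SCC6, and 6.98 and 5.07 CPM in SCC25. Its change across lines was 0.43 ± 0.19 (edgeR FDR = 0.211), a call with the block (edgeR FDR = 0.0385). NOTCH3 with cetuximab had 13.2 and 11.9 CPM in SCC1, 19.9 and 14.6 CPM in SCC6, and 0.881 and 4.22 CPM in SCC25. Its change across lines was -0.37 ± 0.31 and did not pass either test (edgeR FDR = 0.536; 0.0874 with the block). With the block, the share of all genes called across lines was 11.6%, in SCC6 20.1% and for the interaction 1.29%.

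**Figure D2:**
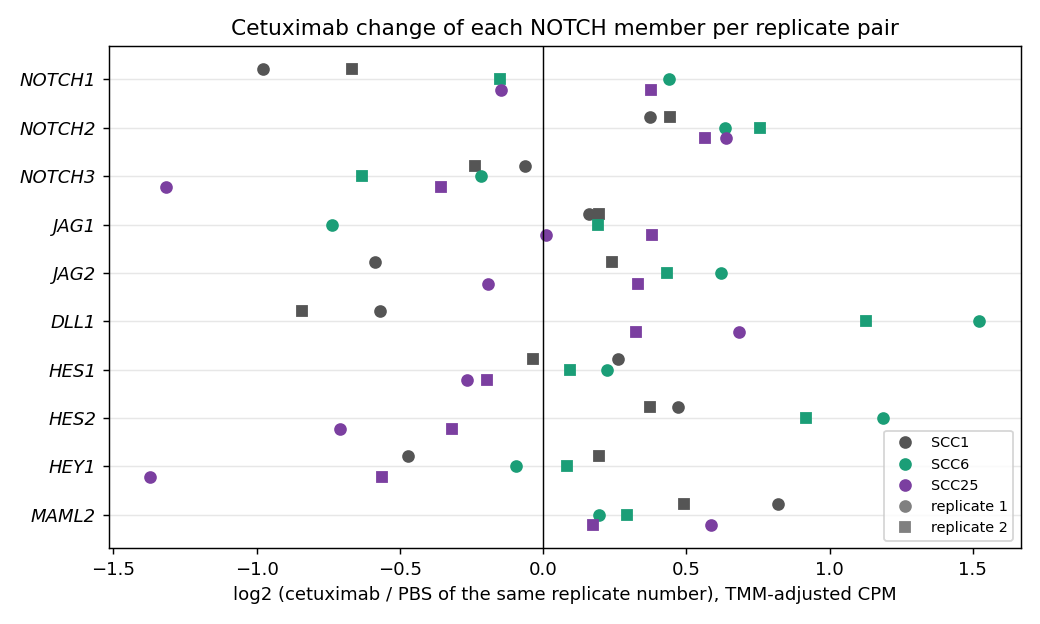
Log2 ratio of cetuximab to PBS for each member, from TMM-adjusted CPM of samples with the same replicate number, with colours for lines, circles for replicate 1 and squares for replicate 2. NOTCH2 and MAML2 lie above 0 in all 6 pairs and NOTCH3 below 0 in all 6, while DLL1 spans -0.84 to 1.52.

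The remaining members gave smaller or mixed values. NOTCH1 in SCC1 was 19.6 and 22.7 CPM with PBS and 9.94 and 14.3 CPM with cetuximab (-0.80 ± 0.30, edgeR FDR = 0.472), without overlap, and in SCC6 and SCC25 its change was 0.19 ± 0.30 and 0.14 ± 0.30. JAG1 was higher in 5 of 6 pairs and JAG2 in 4 of 6, and the across-line values were -0.0049 ± 0.19 and 0.15 ± 0.16. HES1 did not pass the test, with log2 values of 0.12 ± 0.41 for SCC1, 0.14 ± 0.41 for SCC6 and -0.22 ± 0.41 in SCC25. HEY1 changed by -0.85 ± 0.42 in SCC25 (edgeR FDR = 0.892). Groups of PBS and cetuximab samples did not overlap for 5 members in SCC1, 5 in SCC6 and 3 in SCC25, where 42.7%, 46.9% and 29.7% of all genes did not. The median log2 change of the 10 members was 0.03 for SCC1, 0.21 for SCC6 and 0.10 for SCC25, against 0.00, 0.00 and -0.01 over all tested genes.

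The wider pathway was read from 57 further genes, of which 54 were tested. In SCC6, 3 of the 54 were called, 1 higher and 2 lower with cetuximab, beside 3.81% of all genes. LFNG, a Fringe glycosyltransferase that modifies NOTCH receptors, rose from 4.39 and 8.91 CPM to 20.0 and 28.8 CPM (1.87 ± 0.38, edgeR FDR = 0.0284). NEURL1, a ubiquitin ligase that acts on NOTCH ligands, fell from 18.3 and 38.7 CPM to 5.27 and 7.28 CPM (-2.18 ± 0.46, edgeR FDR = 0.0315). HES7, of the same HES family, fell from 5.996 and 8.39 CPM to 2.40 and 2.87 CPM (-1.45 ± 0.33, edgeR FDR = 0.0396). None of the 3 overlapped between treatments, as was so for 46.9% of all genes in SCC6. The 3 were named because they were called in these same samples, so this adds no support. With the replicate block 10 of 54 were called in SCC6, 5 in each direction, beside 20.1% of all genes.

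Across lines 2 of the 54 were called, beside 3.67% of all genes. The corepressor gene TLE4 rose (0.96 ± 0.20, edgeR FDR = 0.0253) and NEURL1 fell (-1.33 ± 0.31, edgeR FDR = 0.0400), and with the block 6 of the 54 were called, beside 11.6% of all genes. In SCC1 and SCC25 edgeR called 0 of the 54, with 5 and 1 at an unadjusted p under 0.05, beside 8.77% and 5.82% of all genes. The block called 1 and 0, beside 4.45% and 0.978% of all genes.

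Between untreated lines, 24 of the 54 pathway genes were called for SCC1 against SCC6 (5 higher, 19 lower), 22 for SCC1 against SCC25 (12 higher, 10 lower) and 22 for SCC6 against SCC25 (16 higher, 6 lower). The shares over all genes were given above (40.2% to 40.9%). Corepressors were mostly lower in SCC1, where 6 of 10 tested were called lower than in SCC6, among them TLE1 (-1.81 ± 0.20) and TLE2 (-5.59 ± 0.70). NEURL1 was the gene with the smallest p in SCC1 against SCC25 (5.93 ± 0.55, edgeR FDR = 2.90e-05) and was also higher in SCC6 than in SCC25 (4.76 ± 0.53, edgeR FDR = 8.32e-05). HEY2, a target of the HEY family, was higher in SCC25 than in SCC1 (-6.11 ± 0.65) or SCC6 (-6.17 ± 0.65). Its mean was 3.82 CPM in SCC25 PBS against 0.0541 in SCC1 PBS and 0.0521 in SCC6 PBS. The last 2 groups had 9 UMIs each, so the size of both differences is uncertain. DTX3, a Deltex ubiquitin ligase, was lower in SCC25 (1.97 ± 0.20 and 2.13 ± 0.21).

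To see how widely the members were detected, each cell was thinned to 15000 UMIs, which kept 23063 of 23914 cells, and the share of cells with at least 1 UMI was taken per sample. The leukocyte, liver and red cell genes PTPRC, CD3E, ALB and HBB, which these cells should lack, reached at most 0.160% in any sample. Thinned shares are given as mean ± SD of 2 samples and carry no test. HES1 was detected in most cells of every sample, from 71.4% to 90.9%, whereas HEY1 was detected in 0.905% to 4.32%.

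DLL1, the ligand that was called in SCC6, was detected in 2.19% ± 0.10 (n = 2) of SCC6 PBS cells and in 6.61% ± 0.97 (n = 2) of SCC6 cetuximab cells, against 15.4% ± 1.9 (n = 2) and 16.5% ± 0.63 (n = 2) in untreated SCC1 and SCC25. The 95% Clopper-Pearson intervals, which cover counting error only, did not overlap between the PBS and cetuximab samples of SCC6. HES2 was found in 61.1% ± 5.1 (n = 2) of SCC25 PBS cells and in 8.01% ± 1.5 (n = 2) of SCC6 PBS cells. NOTCH3 was found in 25.2% ± 0.76 (n = 2) of SCC6 PBS cells and in 5.54% ± 2.9 (n = 2) of SCC25 PBS cells. Without thinning the shares were higher, and DLL1 then stood at 5.14% and 13.8% in SCC6 PBS and cetuximab.

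**Figure D3:**
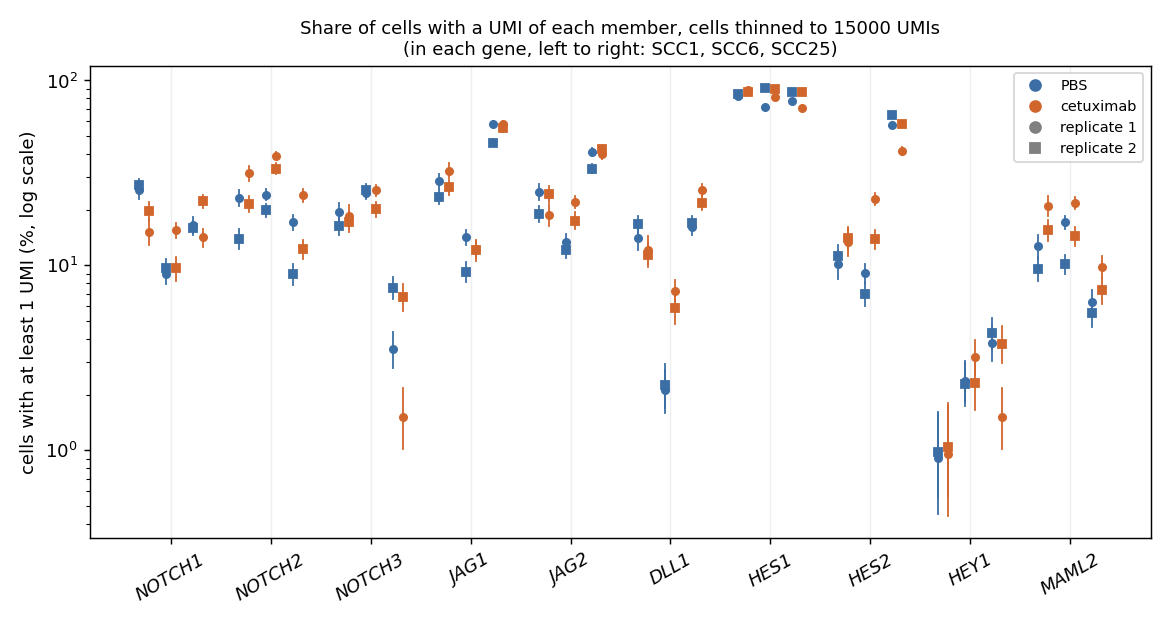
Share of cells with at least 1 UMI of each member in percent (log axis) after thinning every cell to 15000 UMIs, with 1 point per sample and lines for the 95% Clopper-Pearson interval. HES1 lies above 70% in all samples, and DLL1 in SCC6 goes from a mean of 2.19% with PBS to 6.61% with cetuximab.

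The members were then followed along differentiation and proliferation. In each sample the 10% of thinned cells with most UMIs of 20 squamous differentiation genes was set against the other cells, and the same was done for 20 cell cycle genes. The differentiation sum came mostly from the keratin genes KRT10 and KRT13. In SCC6 PBS it was 389 to 453 CPM, of which KRT10 gave 348 to 397. In SCC1 PBS it was 646 to 778 CPM, with 365 to 517 from KRT13 and 252 to 257 from KRT10. Between 2 and 5 of the 20 genes had no UMI in a group. NOTCH1 was higher in the differentiation-rich cells in 12 of 12 samples, with ratios from 1.06 to 2.38. HES2 was higher in 11 of 12, and NOTCH3 and HES1 in 10 of 12. Outside the members, the immediate-early gene FOS was higher there in 11 of 12 and VIM in 3 of 12. The median ratio was 1.31 for both FOS and HES1, so high counts were not limited to NOTCH members. The share over all genes was not measured.

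The cut differed between lines, since the last cell taken had 27 to 58 UMIs of the differentiation genes in SCC1, 9 or 10 in SCC6 and 6 to 34 in SCC25, and 58 to 117 cells were tied at it in SCC6 samples. The ratios of the lines therefore stand side by side without comparison. For HES2 they were 3.70 to 5.63 in SCC1 samples, 0.979 to 1.59 in SCC6 and 1.08 to 1.62 in SCC25. NOTCH3 had ratios of 1.76 to 2.91 in SCC1 and 2.63 to 4.15 in SCC25, and 0.916 to 1.18 in SCC6. DLL1 was below 1 in SCC1, at 0.254 to 0.479, and was higher in the differentiation-rich cells in 2 of 12 samples, both from SCC6. JAG2 was higher there in 2 of 12 and NOTCH2 in 4 of 12. These ratios rest on as few as 5 UMIs of DLL1 and 7 of NOTCH3 in the upper 10% of a sample. They are a description without a test.

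The cell cycle-rich cells gave other ratios. HES2 and JAG1 were higher there in 1 of 12 samples each, with median ratios of 0.611 and 0.656. NOTCH2 was higher in 10 of 12 (median 1.13) and DLL1 in 8 of 12 (median 1.40). Outside the members, FOS was higher there in 0 of 12 samples and VIM in 8 of 12. For DLL1 the ratios were 1.13 to 1.995 in SCC1 and SCC25 samples and 0.321 to 0.774 in SCC6 samples. The SCC6 ratios rest on as few as 2 UMIs of DLL1 in the upper 10% of a sample. The 20 cell cycle genes had log2 changes below 0 with cetuximab in every line, at a median of -1.07 for SCC1, -0.43 for SCC6 and -0.43 for SCC25. Within lines edgeR called 0 of the 20, beside 0.0168%, 3.81% and 0% of all genes. At an unadjusted p under 0.05 there were 12, 1 and 0, beside 8.77%, 19.9% and 5.82%. With the block it called 16, 6 and 0, beside 4.45%, 20.1% and 0.978%. Across lines it called 2, both lower, beside 3.67% of all genes, with 14 at an unadjusted p under 0.05, beside 21.0%. The block called 15 across lines, beside 11.6%. The part of proliferation in the member changes was not tested.

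**Figure D4:**
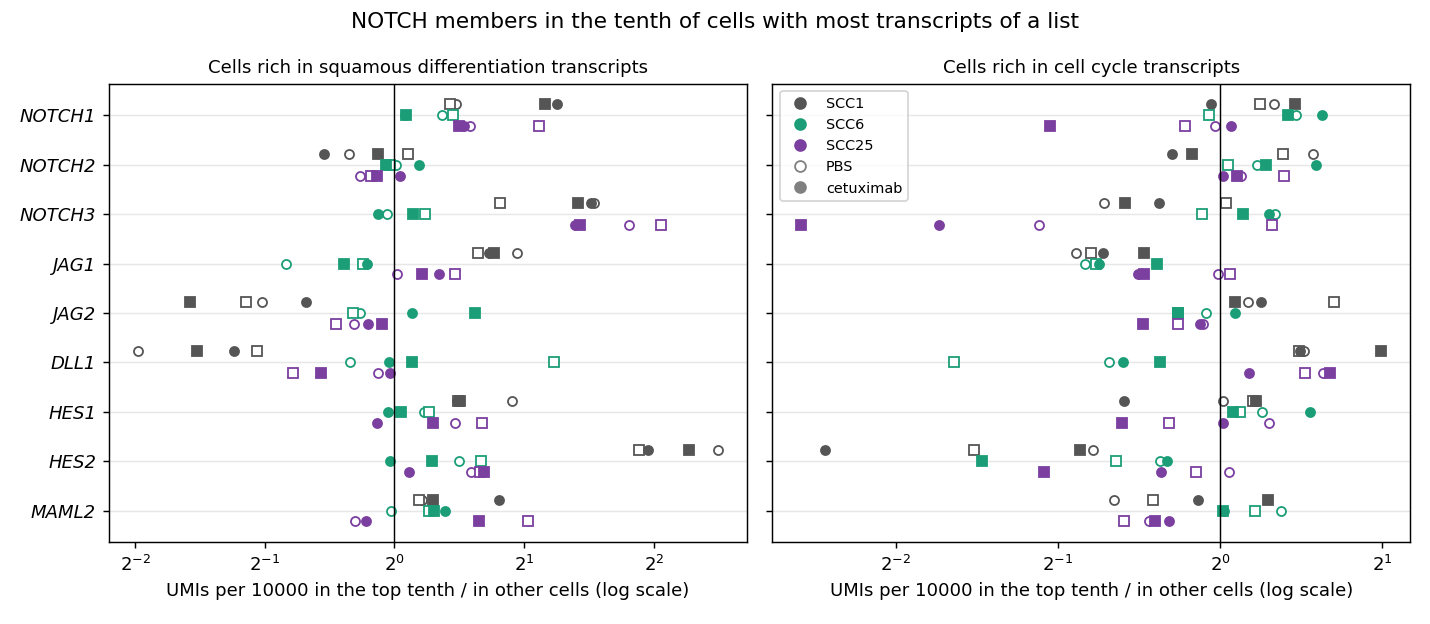
Ratio of UMIs per 10000 in the 10% of cells with most squamous differentiation (left) or cell cycle (right) transcripts to that in the other cells, on a log axis, for 9 members (HEY1 was left out because 1 sample had 0 UMIs in its cell cycle-rich cells). Each point is 1 of 12 samples, open for PBS and filled for cetuximab. In the left panel HES2 lies far right of 1 in SCC1, and NOTCH3 in both SCC1 and SCC25. In the right panel HES2 and JAG1 lie mostly left of 1.

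Receptors and ligands were also counted in the same cells. The share of thinned cells with both transcripts was divided by the product of the single shares, so that 1 is the value for independent detection. NOTCH3 and JAG2 had a ratio above 1 in 1 of 12 samples (median 0.844), and NOTCH3 and DLL1 in 2 of 12 (median 0.719). NOTCH1 and JAG1 had a ratio above 1 in 10 of 12 samples (median 1.14, from 0.47 to 1.42), as did NOTCH2 and JAG1 (median 1.09). NOTCH3 and JAG1 had a ratio above 1 in 9 of 12 (median 1.17, from 0.84 to 1.37). With HES1 the receptors stayed between 0.984 and 1.06 in all samples. HES1 was detected in 71.4% to 90.9% of cells, which leaves this ratio little room above 1. A value near 1 therefore does not show that receptor and HES1 detection are unrelated. Cells of 1 sample share their library, and these ratios are given without a test.

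The genes most like each member were taken from the correlation of log2(CPM + 1), centred within lines, over 12 samples. Points share lines, treatment and replicate number, so the values describe these samples only. HES1 was closest to the immediate-early genes FOS (r = 0.910) and FOSB (r = 0.903). FOS had 96.3 and 221 CPM in the SCC6 PBS replicates and 73.7 and 197 CPM in those of SCC25, where HES1 also had its lower value in replicate 1. The part of the early-response genes in the HES1 values was not tested. HES2 was closest to TINCR (r = 0.967), a long noncoding RNA of epidermal differentiation, and KRT14 (r = 0.910), and NOTCH3 to DEFB1 (r = 0.938), an epithelial defensin gene. NOTCH2 was closest to MICAL2 (r = 0.978), an actin-oxidising enzyme, and JAG1 to POLR3D (r = 0.977).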

How the data were processed

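The deposited tables held raw counts of UMIs per gene and cell, 1 table per line, and a table that assigns cells to samples. The authors made the libraries with the 10x Genomics 3′ v2 chemistry. The submitters' processing notes name Cell Ranger and GRCh38, the study's methods name Monocle for pre-processing, and the annotation is not given in the sources used here. Per-sample columns not used numbered 0.

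All 23914 cells were kept and no doublet caller was run. Symbols on more than 1 line (24) were summed. Replicates of 1 group shared 3 to 10 barcodes and samples of different groups 1 to 13. UMIs were summed per sample and tested with edgeR 4.0.16 in R 4.3.3 (TMM, filterByExpr, 1 mean per group, 6 residual degrees of freedom, two-sided, FDR threshold 0.05), and the effect across lines with a model of line and treatment. DESeq2 1.42.0, its size factors, no filter, each sample left out, each line alone, no top 5% of cells by UMIs and a replicate block were alternatives. Plain library totals, and the block without filter, were added after seeing the data. TMM factors ran from 0.835 to 1.14. The edgeR step was tested on simulated data.

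Groups and replicate numbers come from the labels. Deviations of same-numbered samples correlated at 0.283 in SCC1, 0.278 in SCC6 and 0.539 in SCC25 over 17897 genes, each above 0.1. On that basis the numbers were taken to pair the samples within a line, and blocked values are given where a call changed. Replicate 1 had fewer UMIs than replicate 2 in every group, and a fixed constant was added to each count before the logarithm. Scarce genes can then shift together in both treatments, which can raise the correlation without pairing. The part of depth was not tested, so blocked calls rest on an assumed pairing. For comparisons of untreated lines the block was instead 1 term shared by all lines. The correlations do not show whether equal numbers belong together across lines.

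Thinning to 15000 UMIs (the 10th percentile in the shallowest sample, to a multiple of 500) left out 851 cells, 262 of them in SCC6 cetuximab replicate 1. With at least 57057402 UMIs per sample, counting limits only scarce transcripts. Members, lists and comparisons were chosen with earlier results of these data known. All members were named. Of the pathway list, the genes with the smallest p among those called were named, and of likeness up to 3 genes per member among genes with a mean of 10 CPM or more.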

Additional observations from a re-analysis of the deposited data

Results flagged for a closer look

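Members were examined whose cetuximab changes ran in opposite directions in both replicate pairs of 2 lines, or whose effects differed between 2 lines by a test. With 2 samples per group, no sample could be tested as lying apart from its group. For DLL1 the SCC6 effect minus the SCC1 effect was 2.06 (log2, edgeR FDR = 0.128; 0.0128 with the replicate block), and the SCC25 effect minus the SCC1 effect was 1.23 (edgeR FDR = 1.0; 0.170 with the block). Both SCC1 pairs fell on the lower side and all 4 pairs of SCC6 and SCC25 on the higher side.

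For HES2 the SCC25 effect differed from that in SCC6 by -1.55 (edgeR FDR = 0.417; 0.0256 with the block) and from that in SCC1 by -0.89 (edgeR FDR = 1.0; 0.260 with the block), with both SCC25 pairs lower and the 4 other pairs higher. For HES1 the difference of SCC25 and SCC6 was -0.36 (edgeR FDR = 0.945; 0.270 with the block), with both SCC6 pairs higher and both SCC25 pairs lower.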

How the results depend on the processing

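Counts of members called at FDR 0.05 moved by more than 1.5 times as follows. In SCC6, where edgeR called 1, DESeq2, no filter and plain library totals gave 2 each, the replicate block 3 with or without the filter, and SCC6 alone 0, with 0 to 1 over samples left out. With the block and no filter, SCC1 gave 3, namely NOTCH1 (-0.80, edgeR FDR = 0.0194), DLL1 (-0.69, FDR = 0.0304) and MAML2 (0.68, FDR = 0.0311), and SCC25 gave 1, NOTCH2 (0.61, edgeR FDR = 0.0470). Across lines, the replicate block gave 2 with or without the filter. For the interaction, DESeq2 and no filter gave 1, and the block 2 with or without the filter. For untreated SCC1 against SCC6, the block gave 7 with or without the filter, and plain totals 5. For untreated SCC1 against SCC25, leaving out samples gave 3 to 6. The cause of these moves was not tested. With the filter, the block changed no other call of a member than those printed in the report.

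Some values of the members turned sign, none past the threshold. HEY1 gave 0.0049 in SCC1 without the top 5% of cells by UMIs, and in SCC6 0.0020 with that line alone and 0.22 with plain totals. JAG1 across lines gave 0.0031 with no filter, 0.038 with the replicate block, 0.044 with the block and no filter, 0.0085 without the top cells and 0.097 with plain totals. HES1 across lines gave -0.00092 without the top cells. DLL1 for untreated SCC1 against SCC25 gave 0.062 with plain totals. With plain totals the median over all genes was 0.225 in SCC6 and 0.107 across lines, where it was 0 and 0.006 with TMM, and it was 0.309, 0.145 and -0.146 between untreated lines, where it was -0.0033, -0.040 and -0.0047.

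Leaving out 1 sample at a time gave these ranges. In SCC1, JAG2 ran from -0.44 to 0.074, HES1 from -0.078 to 0.29 and HEY1 from -0.60 to 0.30. In SCC6, NOTCH1 ran from -0.26 to 0.53, JAG1 from -0.82 to 0.27, HES1 from -0.23 to 0.58, HEY1 from -0.20 to 0.18 and MAML2 from -0.19 to 0.70. In SCC25, NOTCH1 ran from -0.16 to 0.40, NOTCH2 from -0.012 to 1.2, NOTCH3 from -2.11 to 0.23, JAG1 from -0.079 to 0.48, JAG2 from -0.13 to 0.27 and HES1 from -0.79 to 0.31. Across lines, JAG1 ran from -0.094 to 0.20 and HES1 from -0.095 to 0.17. Between untreated lines, HES1 ran from -0.16 to 0.62 (SCC1 against SCC6), from -0.30 to 0.62 (SCC1 against SCC25) and from -0.53 to 0.43 (SCC6 against SCC25), and DLL1 from -0.39 to 0.11 (SCC1 against SCC25). A lone sample left in a group was assumed to vary like the others. The median share of cells with a UMI, over members and samples, was 17.0% thinned and 37.7% without thinning.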
